A study of Drosophila melanogaster with 6 samples.

Results

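Glycolysis is the cytosolic pathway that splits glucose into pyruvate. Its transcripts were followed here in whole Drosophila melanogaster larvae made to express the nuclear receptor DHR96 in excess. The enzymes were a list of 10 genes, Hex-A, Hex-C, Pgi, Pfk, Tpi, Gapdh1, Pgk, Eno, Pyk and Ldh. They were matched by gene symbol, ignoring case, to the annotation of the 18952 probe sets on the array. Of the 10 genes, 8 had a probe set, 1 each, and Pyk (pyruvate kinase) and Ldh (lactate dehydrogenase) were not analysed here. The 8 stand among 11982 genes that a probe set names alone. The 3 gain samples had a w1118 background and carried, on a P-element, a transgene in which a heat-shock promoter drives the complete coding DNA copy of Hr96, the DHR96 gene. The 3 control samples were w1118 larvae without a transgene. Both groups were feeding larvae raised on bakers' yeast and staged at the moult to the third instar, and both were heated at 37.5 °C for 1 h beginning 3 h after that moult, with RNA taken 4 h after the heat. Heat shock itself is therefore shared by both groups. Transgenic larvae kept from heat were not analysed here, so that an effect of the receptor and any prior difference of that line from w1118 cannot be told apart. The labels do not state whether the samples of a group were separate cultures, and the p-values measure only the spread between these samples.

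In this pathway hexokinases trap glucose in the cell as a phosphate ester, Pgi and Pfk prepare the sugar for cleavage, and Tpi, Gapdh1, Pgk and Eno carry the resulting trioses towards pyruvate with a yield of ATP and NADH. Fly larvae are known for a strongly glycolytic metabolism during growth, with lactate dehydrogenase returning NADH to NAD. Insect blood carries much of its sugar as trehalose, which is cut to glucose before it enters glycolysis. DHR96 is known in flies for roles in the handling of lipids, sterols and foreign compounds.

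Hr96 itself, which checks the labels, had log2 intensities of 14.64 to 14.73 in gain larvae and 9.47 to 9.82 in control larvae, a 34.2-fold difference (limma adjusted p = 1.86e-05). All values below are log2 of the deposited intensity, so a difference of 1 is a doubling. A probe set was tested when it reached a log2 value of 4 on at least 3 of the 6 arrays, which all 8 glycolysis probe sets did on all 6 arrays. The highest value on any array was 16.41, and whether the brightest members were near saturation was not tested. Levels of different probe sets depend on their probes and are not compared with each other.

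Most of the pathway was measured within a narrow band in both groups, and one hexokinase stood apart. By limma none of the 8 members passed an adjusted p of 0.05, against 3.93% of all 7974 tests, made up of 0.451% higher in gain and 3.47% lower. At an unadjusted p under 0.05, 1 member, Hex-C, was counted, against 21.1% of all tests. Hex-C had the largest difference, 0.73 on the log2 scale, and narrowly missed the threshold (limma adjusted p = 0.0512). The 7 other members had differences from -0.20 to 0.0018, with limma adjusted p-values from 0.479 to 0.996. On the deposited values the 95% intervals of these 7 lay between 0.684-fold and 1.32-fold. A change of 1.5-fold either way therefore lay outside each of them on that scaling. Intervals within 1.5-fold either way were found for 49.0% of all tests, and for 64.9% of the 2672 tests with a mean log2 value of 10 or more. Under median centring of the arrays the differences of the 7 ran from 0.052 to 0.25. Their intervals under other settings are not given here. In whole larvae, fewer cells of a type and less RNA per cell cannot be told apart.

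The log2 intensities of the 8 genes on the 6 arrays are plotted gene by gene.

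**Figure D1:**
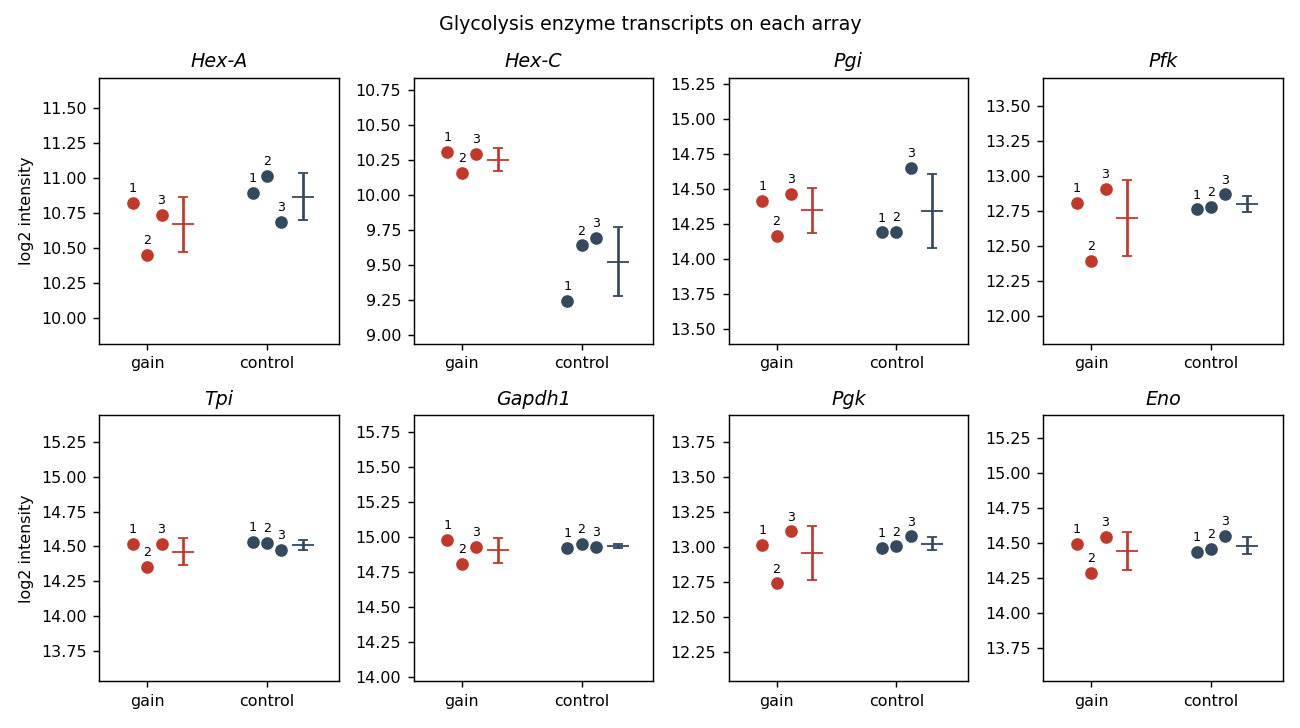
Log2 intensity of the 8 glycolysis genes on each array, gain in red on the left and control in dark blue on the right of each panel. Points are arrays, numbered by replicate, and the bar beside them is the mean with its SD (n = 3). Every panel spans the same log2 range. The groups are apart in Hex-C, where gain arrays lie between 10.16 and 10.31 and control arrays between 9.24 and 9.69, and overlap in the others.

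Hexokinases catalyse the entry step. Hex-C, a hexokinase known from the fat body of flies, had values of 10.31, 10.16 and 10.30 in gain larvae, against 9.24, 9.64 and 9.69 in control larvae. Every gain array lay above every control array, and the gain arrays spread less than the controls, among which control 1 was the lowest. The group means were 10.25 ± 0.083 in gain and 9.53 ± 0.25 in control (SD, n = 3 each). The fitted difference of 0.73 ± 0.15 (SE) is a 1.66-fold higher level, with a 95% interval of 1.30-fold to 2.12-fold. Hex-C ranked 322 of 7974 tests by p, next to the 313 that passed, and its absolute difference was larger than that of 91.0% of tests. Hex-C was the only member whose groups did not overlap with gain on top, a pattern shown by 5.49% of all tests. No member had all gain arrays below all controls, which 25.2% of all tests had.

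Hex-A, the hexokinase gene known from flight muscle and most other fly tissues, had values of 10.82, 10.45 and 10.73 in gain larvae and 10.89, 11.01 and 10.68 in control larvae. The groups overlapped, since control 3 lay below gain 1 and gain 3. The difference was -0.20 ± 0.15 (SE, limma adjusted p = 0.479). The log2 ratio of Hex-C to Hex-A within each array was -0.51, -0.29 and -0.44 in gain larvae and -1.65, -1.37 and -0.99 in control larvae. The ratio's own level depends on the probes, but its change between groups, 0.92 on the log2 scale, is unaffected by a shift of a whole array. All 3 gain arrays had a higher ratio than all 3 controls. Set against the mean of the 7 other members in the same way, Hex-C was higher in gain by 0.80. Hex-C was set against the others after its values were seen, so both ratios are descriptions with no test. The testis hexokinases Hex-t1 and Hex-t2 lay below a log2 value of 4 on all 6 arrays and were not tested.

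The call of Hex-C depended on the processing, while its direction was positive in all 20 alternatives. It passed with quantile normalization (difference 0.94, limma adjusted p = 0.0241), median centring of the arrays (0.98, adjusted p = 0.0152), median difference centring (0.87, adjusted p = 0.0186), array weights (0.97, adjusted p = 0.00262), a floor of 6 (adjusted p = 0.0435), a pseudocount of 16 (adjusted p = 0.0474) and without control 3 (adjusted p = 0.0476). It did not pass in the other 13, among them the fit without control 1, which gave the lowest difference, 0.59 (adjusted p = 0.165), and the fit without filter (adjusted p = 0.122). Array weights, whose estimation stopped before its tolerance was reached, called 638 of all 7974 tests higher and 1928 lower.

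**Figure D2:**
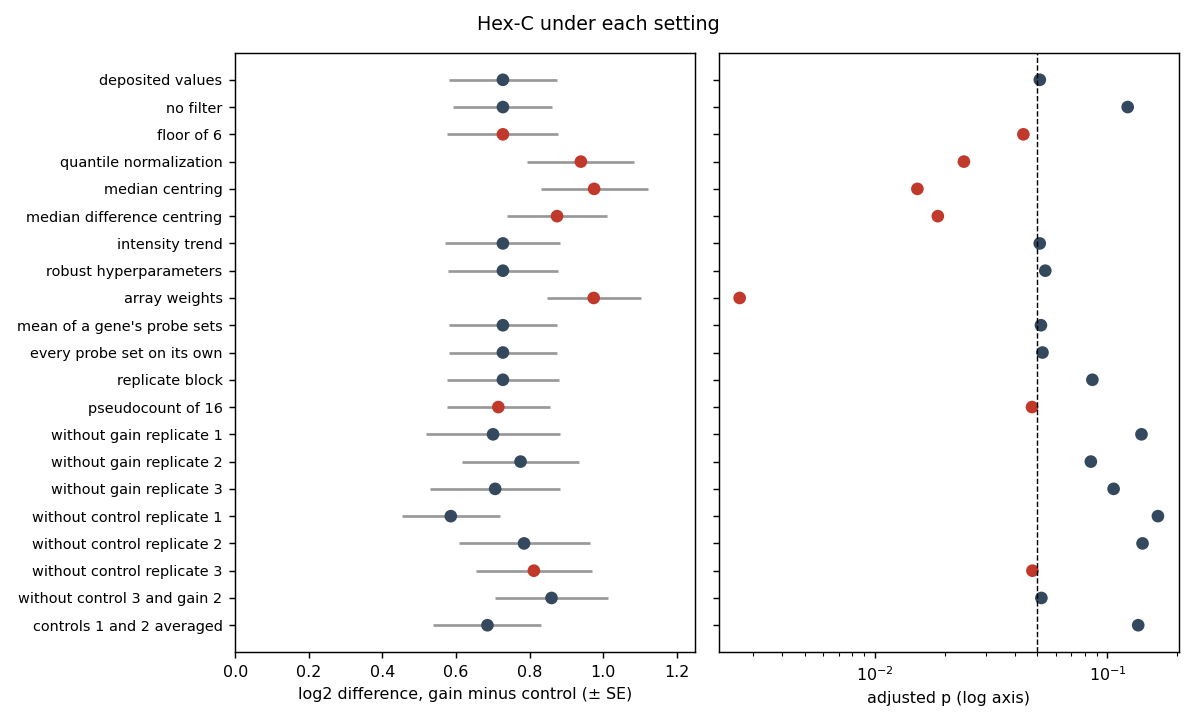
Hex-C under the deposited values and the 20 alternatives, with the log2 difference of gain minus control and its SE on the left and the limma adjusted p on a log axis on the right. Red points passed an adjusted p of 0.05, drawn as the dashed line. The differences run from 0.59 to 0.98 and the adjusted p-values from 0.00262 to 0.165.

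The next steps turn the trapped hexose into a sugar with a phosphate at each end. Pgi, glucose phosphate isomerase, had values of 14.41, 14.17 and 14.47 in gain larvae and 14.19, 14.20 and 14.65 in control larvae. Control 3 was the highest array and the other controls lay with gain 2 at the bottom, so the groups overlapped. Its difference, 0.0018 ± 0.17 (SE, limma adjusted p = 0.996), was the smallest of the members. Pfk encodes phosphofructokinase, the committed and most strongly regulated step. It had values of 12.81, 12.40 and 12.91 in gain larvae and 12.76, 12.78 and 12.87 in control larvae. Gain 2 lay apart below the other 5 arrays, and the difference of -0.099 ± 0.15 (SE, limma adjusted p = 0.748) was within the spread of the gain arrays (SD 0.27).

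Pfrx, which makes and removes the fructose bisphosphate signal that activates phosphofructokinase, is no member but acts on this step. It had values of 9.16, 8.68 and 9.00 in gain larvae, against 9.68, 9.64 and 9.48 in control larvae. All gain arrays lay below all control arrays, a pattern that no member but 25.2% of all tests showed. The difference was -0.66 ± 0.15 (SE, limma adjusted p = 0.0684), which did not pass. It passed with median difference centring (adjusted p = 0.047), array weights (adjusted p = 0.00258) and without control 3 and gain 2 (adjusted p = 0.039). These settings called 349, 1928 and 631 of all 7974 tests lower.

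The triose steps varied least within groups, with pooled SDs of 0.063 to 0.14 for Tpi, Gapdh1, Pgk and Eno and of 0.18 to 0.22 for the other 4 members. Tpi, which interconverts the 2 triose phosphates, had values of 14.52, 14.35 and 14.52 in gain larvae and 14.53, 14.53 and 14.47 in control larvae, a difference of -0.048 ± 0.099 (SE, limma adjusted p = 0.815). Gapdh1, which oxidises the triose and produces NADH, had 14.98, 14.81 and 14.93 in gain larvae and 14.92, 14.95 and 14.93 in control larvae. Its control arrays had an SD of 0.015, the smallest of any member, and its difference was -0.028 ± 0.097 (SE, limma adjusted p = 0.895). The near copy Gapdh2 was not analysed here, and a contribution of its transcripts to the Gapdh1 probe set was not tested.

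Pgk, which makes the first ATP of the pathway, had values of 13.02, 12.74 and 13.11 in gain larvae and 13.00, 13.00 and 13.08 in control larvae. Gain 2 was again the lowest and gain 3 the highest array, so the control range lay inside the gain range. The difference was -0.069 ± 0.13 (SE, limma adjusted p = 0.79). Eno, enolase, which forms the high-energy phosphate that pyruvate kinase uses, had 14.49, 14.29 and 14.54 in gain larvae and 14.44, 14.45 and 14.55 in control larvae. Its difference was -0.040 ± 0.11 (SE, limma adjusted p = 0.867), and the groups overlapped. By the array maker's naming the probe sets of Pgi, Tpi and Eno are of the kind that can read transcripts of several genes. So are those tested outside the members for Pfrx, Ald1, PCB, Treh, CG8036, Glut1, daw and Mondo. Which other genes these probe sets read was not tested.

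Among the members other than Hex-C the same array was always the lowest. All 7 had their lowest value on gain 2, which was also the lowest array for 66.1% of all 7974 tests. On gain 2 the median member lay 0.18 below its own mean over the 6 arrays, and the median of all tests lay 0.27 below. On gain 1 and gain 3 the median member lay 0.054 and 0.10 above its mean, against 0.0031, 0.019 and 0.048 above it on the controls. Hex-C was the exception, lowest on control 1 and above its mean by 0.27 on gain 2.

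**Figure D3:**
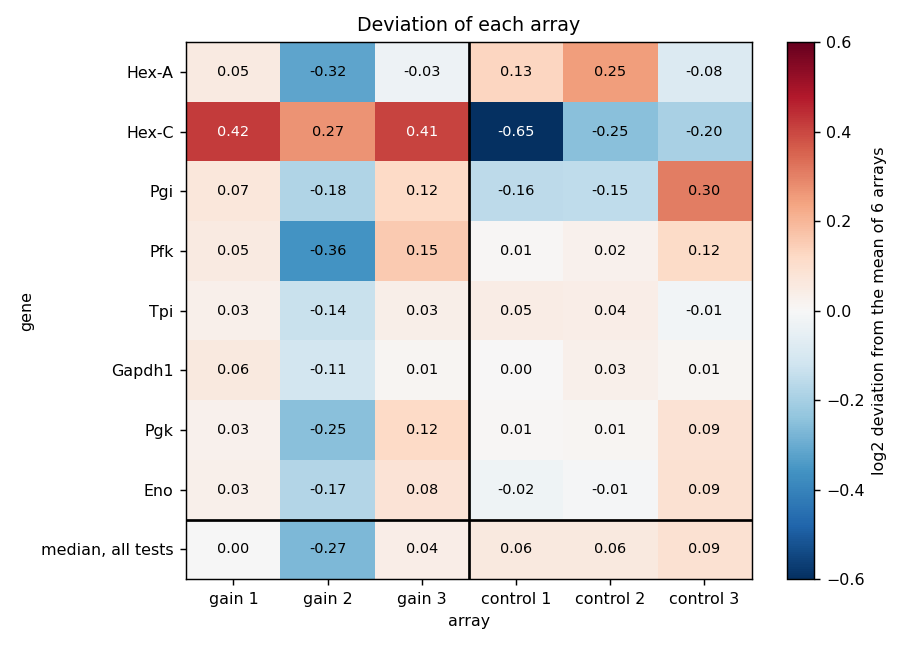
Deviation of each of the 6 arrays from a gene's mean over them, on the log2 scale, for the 8 members and, below the line, the median over all tests. Red is above and blue below the mean, with gain arrays left of the vertical line and control arrays right of it. Gain 2 is negative for every member except Hex-C, and the median of all tests on it is -0.27.

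The sign of the small differences is not settled. On the deposited values 2 members had a positive and 6 a negative difference, while 6 were positive under quantile normalization, 8 under median centring, 7 under median difference centring and 7 without gain 2. Pgi was -0.031 without gain 1, -0.057 without gain 3, -0.076 without control 1 and -0.074 without control 2. It was positive without gain 2 (0.093), its lowest array, and without control 3 (0.15), its highest. The cause of these sign changes was not tested. The median difference of the members was -0.044 on the deposited values, against -0.15 for all tests. It was 0.20 under median centring, against 0.10 for all tests, and 0.032 under quantile normalization, against 0.037 for all tests. The members' median thus lay 0.10 above that of all tests on the deposited values and 0.0043 below it after quantile normalization. The median absolute difference of the members was 0.059, against 0.20 for all tests and 0.14 for tests with a mean log2 value of 10 or more. Their median SD within groups was 0.16, the same to that precision as the 0.16 of those bright tests and below the 0.20 of all tests.

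**Figure D4:**
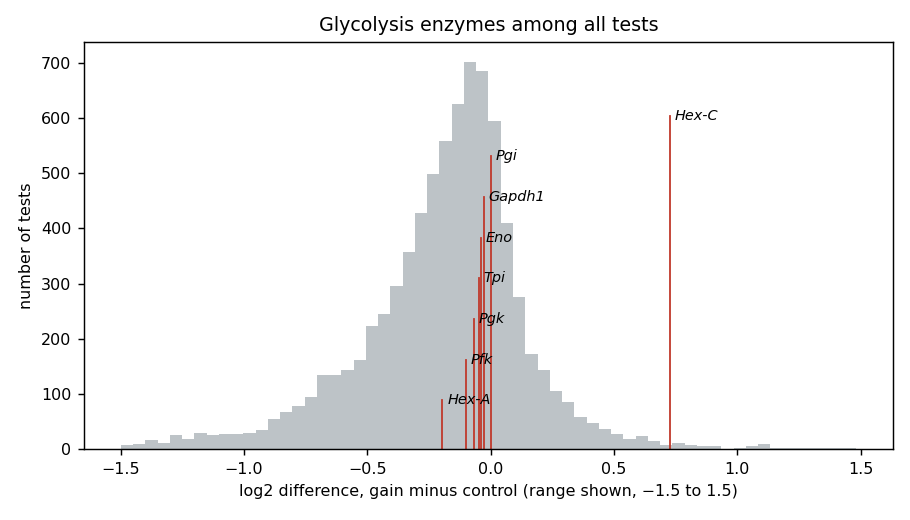
Number of tests by log2 difference of gain minus control, in grey, for the 7837 tests between -1.5 and 1.5 (137 lie outside), with the 8 glycolysis genes as red lines whose heights only separate the labels. Hex-C stands at 0.73, and the other members lie between -0.20 and 0.0018, near the peak.

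Other enzymes of glycolysis lie outside the 10 genes. Of 14 such genes and paralogs 3 were tested, and none passed by limma (1 at an unadjusted p under 0.05, Pfrx, against 21.1% of all tests). Ald1, the aldolase that cleaves the hexose, had values of 15.06, 15.12 and 15.30 in gain larvae and 14.99, 15.04 and 15.03 in control larvae. All gain arrays lay above all controls, as in 5.49% of all tests, but the difference was 0.14 ± 0.11 (SE, limma adjusted p = 0.489). Its other probe set had 14.25, 14.13 and 14.28 in gain larvae and 14.00, 14.02 and 14.13 in control larvae. Pglym78, phosphoglycerate mutase, differed by 0.026 ± 0.092 (SE, limma adjusted p = 0.9). The third was Pfrx, and 9 with a probe set, among them Pglym87, Hex-t1, Hex-t2 and paralogs of pyruvate kinase and phosphoglycerate kinase, missed the filter.

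Routes that feed or leave glycolysis were described from lists chosen with earlier results known. None of 4 gluconeogenesis genes passed, and 0 had an unadjusted p under 0.05, against 3.93% and 21.1% of all tests. Pepck1 and Pepck2, the carboxykinases that start the reverse path, had differences of 0.39 and 0.28 that turned to -0.0017 and -0.046 without control 3, the array on which both were lowest. PCB, pyruvate carboxylase, had a difference of 0.090. None of 7 glycogen and trehalose genes passed, and 1, Treh, had an unadjusted p under 0.05, against 21.1% of all tests. Treh, the trehalase that releases glucose from blood sugar, had values of 10.60, 10.38 and 10.66 in gain larvae and 10.95, 11.03 and 11.02 in control larvae. Its groups did not overlap, with gain below, as in 25.2% of all tests. The difference of Treh was -0.46 ± 0.11 (SE, limma adjusted p = 0.0825). AGBE, the glycogen branching enzyme, had -0.47 (limma adjusted p = 0.25) and Tps1, which makes trehalose, -0.26 (limma adjusted p = 0.344). With array weights AGBE, Treh and Tps1 were called lower (limma adjusted p = 0.0409, 0.00439 and 0.0112), and in none of the 19 other alternatives. Array weights called 1928 of all 7974 tests lower. Without control 3 AGBE had -0.29 and Tps1 -0.40.

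By limma 0 genes of the next 3 lists passed, and 0 had an unadjusted p under 0.05, against 3.93% and 21.1% of all tests. None of 5 pentose phosphate genes passed, with Rpe at -0.31, CG8036 at 0.14 and Taldo at 0.13. CG8036 was called higher with array weights (0.39, limma adjusted p = 0.021) and without control 3 and gain 2 (0.42, limma adjusted p = 0.0391), and Taldo with array weights (0.40, limma adjusted p = 0.0484). Of all 7974 tests, 638 were called higher with array weights and 129 without control 3 and gain 2. Leaving out 1 array gave -0.44 (without gain 3) to -0.071 (without gain 2) for Rpe and 0.039 (without control 2) to 0.34 (without control 3) for CG8036. None of 4 genes of the NADH shuttles passed, with Gpdh1 at -0.14, Got1 at -0.13 and Got2 at -0.057. Gpdh1 has further probe sets above the floor, and with its probe sets averaged its difference was -0.26 (limma adjusted p = 0.428). None of 6 genes of pyruvate entry into mitochondria passed, with muc, a pyruvate dehydrogenase subunit, at -0.13, PCB at 0.090 and CG7430 at -0.069.

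Of 4 transporter genes tested 1 passed and was lower, and none was higher, against 3.47% and 0.451% of all tests. The lower gene was chk, known in flies as a monocarboxylate transporter of glia, with values of 7.42, 6.73 and 6.92 in gain larvae and 8.58, 8.99 and 7.96 in control larvae. Every gain array lay below every control array, as in 25.2% of all tests. The difference was -1.49 ± 0.30 (SE), a ratio of 0.357, with a limma adjusted p of 0.0492 that lost its call in 12 of 20 alternatives, among them every fit that left out 1 array except that without control 3. A further probe set of chk lay below a log2 value of 4 on all arrays. Glut1 had a difference of -0.26 and Tret1-1, a trehalose transporter, 0.22, neither passing.

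None of 9 regulators of sugar metabolism passed, against 3.93% of all tests. An unadjusted p under 0.05 was found for 2, daw and Mondo, against 21.1% of all tests. The largest differences were those of sug, a sugar-responsive transcription factor, at -0.96 with arrays below the floor in both groups (limma adjusted p = 0.364), daw, an activin-like ligand, at 0.93 (limma adjusted p = 0.111) and Mondo, the fly sugar sensor, at -0.48 (limma adjusted p = 0.125). Median centring and quantile normalization brought daw to 1.18 and 1.17, past the threshold (limma adjusted p = 0.0404 and 0.0498). With array weights sug and Mondo were called lower (limma adjusted p = 0.0472 and 0.0249), as were 1928 of all 7974 tests. Leaving out 1 array moved sug between -1.48 (without control 3) and -0.39 (without control 1). ERR, the receptor known in flies to activate glycolytic genes, was close to the floor, at 4.72, 4.72 and 4.55 in gain larvae and 4.65, 4.96 and 4.75 in control larvae, and differed by -0.12 ± 0.12 (SE, limma adjusted p = 0.592).

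**Figure D5:**
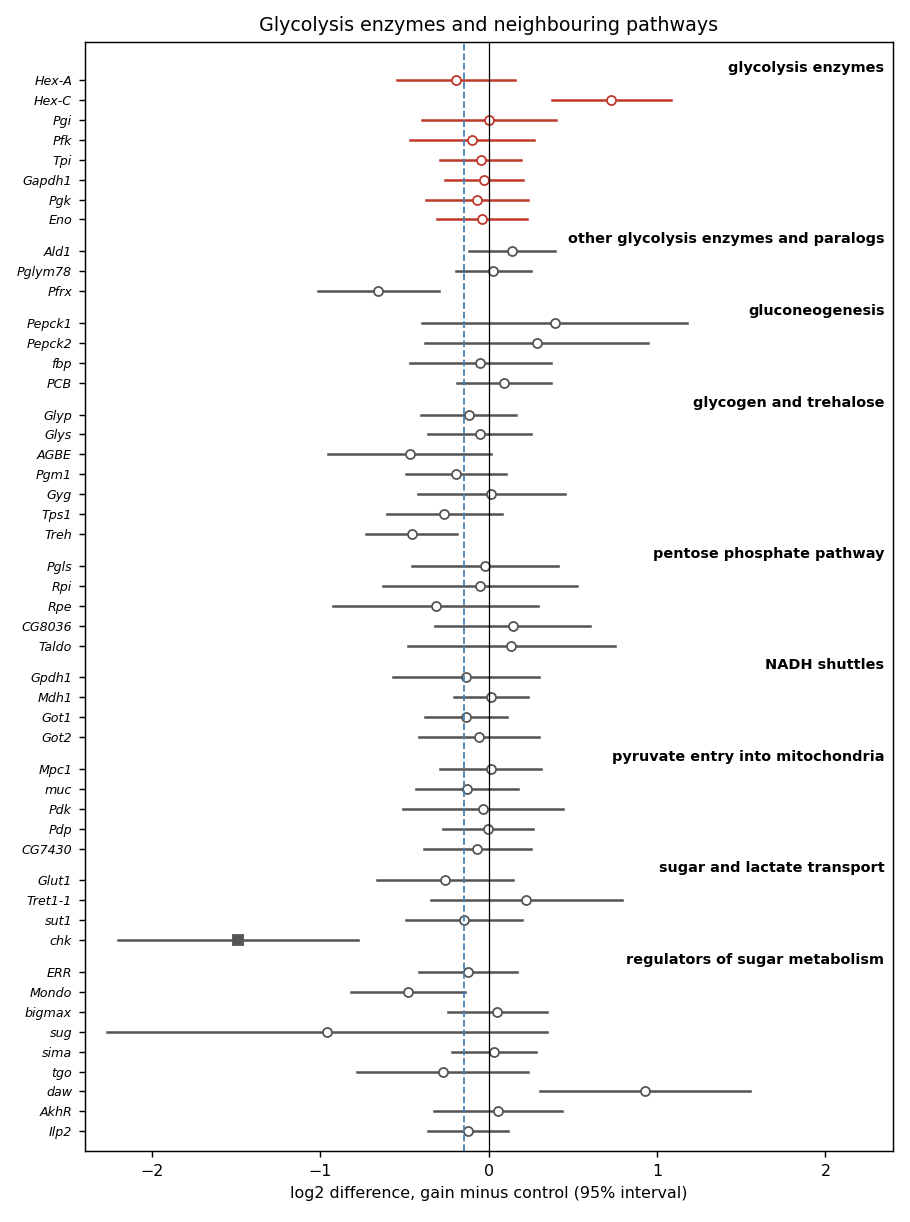
Log2 difference of gain minus control with its 95% interval for the 8 glycolysis genes, in red, and the tested genes of neighbouring pathways, in grey. The filled square passed an adjusted p of 0.05, open circles did not, and the dashed line is the median of all tests, -0.15. The interval of Hex-C lies above 0, and chk alone has a filled mark.

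Markers of larval tissues were looked up for comparison, since whole animals hold them all. All 10 muscle markers with a probe set were tested and none passed, against 3.93% of all tests. Of these markers 0 had an unadjusted p under 0.05, against 21.1% of all tests. Their median difference was -0.049, against -0.15 for all tests. Their summed linear intensities were 222652 to 255916 on gain arrays and 233635 to 246896 on control arrays, which overlap. After median centring they were 252630 to 286698 on gain arrays and 213394 to 226729 on control arrays, without overlap and with gain above. Fat body markers are given beside Hex-C because of that gene's known tissue. None of 6 tested passed, against 3.93% of all tests, and 0 had an unadjusted p under 0.05, against 21.1%. Their median difference was -0.24, against -0.15 for all tests. Their summed intensities were 59873.5 to 66770.1 on gain arrays and 69657.5 to 91024.7 on control arrays, without overlap, but 66120.5 to 77096.3 and 63967.8 to 83138.6 after median centring, where they overlap. These sums weigh the brightest gene, apolpp, the most. Lsp2 varied widely among the controls, from 11.64 on control 2 to 14.45 on control 3. Their part in the value of Hex-C was not tested.

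Of 8 midgut markers tested, 2 trypsin genes, betaTry and epsilonTry, were called lower in gain, against 3.47% of all tests. The other 6 did not pass. An unadjusted p under 0.05 was found for 5 of the 8, against 21.1% of all tests. In 5 of the 8 every gain array lay below every control array, against 25.2% of all tests. A negative difference was found for 7, and the median difference was -0.29, against -0.15 for all tests. betaTry had values of 5.40, 3.01 and 4.59 in gain larvae and 14.50, 14.58 and 14.65 in control larvae, and epsilonTry 4.24, 4.60 and 2.98 in gain larvae and 15.10, 15.11 and 15.12 in control larvae. The others whose groups did not overlap were alphaTry at -0.27, LManII at -0.56 and LManV at -0.31. The summed intensities of the 8 were 80207.5 to 88711.9 on gain arrays and 145961 to 161484 on control arrays, and 81391.3 to 107887 and 133315 to 148294 after median centring, without overlap either way. These sums hold betaTry and epsilonTry, which are among the brightest of the 8 on control arrays and nearly absent on gain arrays. No sum was taken without these trypsin genes, so the gap does not describe the other 6. The part of the midgut markers in the values of the glycolysis genes was not tested. None of 6 haemocyte markers passed, against 3.93% of all tests, and 0 had an unadjusted p under 0.05, against 21.1%. Their median difference was -0.15, as for all tests. Their summed intensities were 3440.44 to 3636.67 on gain arrays and 3895.55 to 3997.35 on control arrays, without overlap, but 3553.11 to 4430.09 and 3577.36 to 3658.16 after median centring, where they overlap. Of 6 neuron markers 1 was tested, elav, at -0.52 without passing. All 6 salivary glue genes, which flies switch on later in the third instar, lay below the floor on all arrays.

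The genes with values most like those of Hex-C over the 6 arrays were pdgy, an acyl-CoA synthetase gene of flies (Pearson r = 0.982), CG6204 (r = 0.98) and CG6770 (r = 0.978). The correlations are over arrays that share the group difference and serve as a description. pdgy had values of 11.19, 11.08 and 11.06 in gain larvae and 10.56, 10.72 and 10.79 in control larvae. The differences of pdgy, CG6204 and CG6770 were 0.42, 0.34 and 0.17, smaller than that of Hex-C, and none passed (limma adjusted p = 0.0917, 0.177 and 0.336).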

How the data were processed

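Whole-larva RNA was measured on 6 oligonucleotide arrays, 3 gain and 3 control, grouped by their titles. The authors deposited linear-scale intensities; GCRMA is the tool that the submitters' processing notes name, without a version. A genome build is not given in the sources used here. No depth exists for arrays, and their number limits the precision. Of 18952 probe sets 13647 had 1 gene in the platform annotation, 402 several, 4720 none and 183 were controls; 13544 matched by gene ID a RefSeq table (Release 6 plus ISO1 MT), used for symbols only.

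Log2 values had no pseudocount. Control probe sets and those under a log2 value of 4 on more than 3 arrays were left out, and of a gene's probe sets the brightest was kept, leaving 7974 tests. Gain was compared with control by limma 3.58.1 in R 4.3.3 (lmFit, eBayes, no covariate), with Benjamini-Hochberg adjustment over all tests and calls at an adjusted p under 0.05. The fit was tested on simulated data. Figures used Matplotlib 3.10.9 in Python 3.11.15.

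The members, the lists and the 20 alternatives (filter, scaling, variance model, probe set summary, replicate block, pseudocount, arrays left out or averaged) were chosen with earlier results of these data known. Genes are named by rule: every member, Hr96, from each list the called genes and the 3 with the largest absolute difference, and the 3 genes most correlated with the member of largest difference. ERR, the genes below the floor and the tissue markers were named beyond that rule, after their values were seen. Median centring used the tested genes, since most probe sets of the array lay below the floor.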

Additional observations from a re-analysis of the deposited data

How the results depend on the processing

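Hex-C kept a positive difference in all 20 alternatives. The 1 member called higher was Hex-C, in 7 of them (a floor of 6, quantile normalization, median centring, median difference centring, array weights, a pseudocount of 16 and without control 3), against 0 on the deposited values, and leaving out 1 array gave 0 to 1. No member was called lower in any. The members' median, -0.044 on the deposited values, was 0.20 under median centring and 0.10 under median difference centring. These scalings raise the mean of the gain arrays relative to that of the control arrays, though not each gain array alike. Uncalled members changed sign, as did uncalled genes of the neighbouring pathways, and both are listed here. Under quantile normalization the turned values were Tpi 0.021, Gapdh1 0.049, Pgk 0.044, Eno 0.021, Got2 0.011, CG7430 0.044 and Glut1 0.018. Under median centring they were Hex-A 0.052, Pfk 0.15, Tpi 0.20, Gapdh1 0.22, Pgk 0.18, Eno 0.21, Gpdh1 0.11, Got1 0.11, Got2 0.19, muc 0.12 and CG7430 0.18. Under median difference centring they were Pfk 0.048, Tpi 0.099, Gapdh1 0.12, Pgk 0.078, Eno 0.11, Gpdh1 0.011, Got1 0.012, Got2 0.090, muc 0.017 and CG7430 0.078. With array weights, whose estimation stopped before its tolerance was reached, they were Pfk 0.040, Gapdh1 0.038, Pgk 0.022, Eno 0.050, Rpe 0.045, Gpdh1 0.015, Got2 0.072 and CG7430 0.015. Without control 3 and gain 2 they were Pfk 0.088, Gapdh1 0.019, Pgk 0.064, Eno 0.072, Pepck2 -0.013, Rpe 0.11, Gpdh1 0.070, Got2 0.14, muc 0.031, CG7430 0.094 and Tret1-1 -0.012. With controls 1 and 2 averaged they were Pgi -0.075 and Taldo -0.0039, and with probe sets averaged within a gene it was PCB -0.0094. Leaving out each array in turn gave -0.076 to 0.15 for Pgi, -0.20 to 0.055 for Pfk, -0.077 to 0.0071 for Tpi, -0.064 to 0.020 for Gapdh1, -0.15 to 0.039 for Pgk, -0.091 to 0.037 for Eno, -0.14 to 0.074 for Got2, -0.16 to 0.030 for CG7430, -0.014 to 0.41 for Taldo, -0.0017 to 0.59 for Pepck1, -0.046 to 0.45 for Pepck2, -0.24 to 0.060 for Gpdh1 and -0.026 to 0.45 for Tret1-1. None of these sign changes carried a call, and the cause was not tested.

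Of 7974 tests (17104 with no filter) 36 were called higher and 277 lower. The higher calls numbered 170 under quantile normalization, 201 under median centring, 128 under median difference centring, 638 with array weights, 129 without control 3 and gain 2, 17 with no filter and 13 with controls 1 and 2 averaged. The lower calls numbered 1928 with array weights, 631 without control 3 and gain 2, 85 with no filter and 40 with controls 1 and 2 averaged. Controls 1 and 2 were the most alike pair of arrays, with an SD of 0.20 for their log2 differences over all tests. For control 3 this SD was 0.43 against control 1 and 0.48 against control 2. The reason was not tested. Leaving out 1 array gave 12 to 51 higher and 27 to 374 lower, with 12 and 27 without control 1, 14 and 45 without control 2, and 19 and 116 without gain 1. Calls were lower in gain in 88.5% of cases on the deposited values, 62.3% under quantile normalization, 55.6% under median centring and 73.2% under median difference centring.

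The replicate block, the replicate number as a term, gave 41 higher and 217 lower calls and an adjusted p of 0.0862 for Hex-C, with no member called. The numbers share no stated batch and were not taken as pairs. Same-numbered deviations correlated at 0.21, 0.026 and 0.37, and the other pairings at -0.36 to 0.34. The 0.37, of gain 3 with control 3, was the highest of all pairings. Deviations cancel out within a group, which ties these correlations to each other, so they cannot decide whether the numbers are pairs.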
